A study of Coturnix japonica with 12 samples.

Results

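A set of 10 genes of the Hippo signalling pathway, out of 16013 in the deposited table, was followed in female embryos of the Japanese quail (Coturnix japonica), in their left and right Müllerian ducts. They were taken by gene symbol from a list made with earlier results of these data known. The list held the co-activators YAP1 and WWTR1 (the gene of TAZ), the DNA-binding factors TEAD1 and TEAD4, and the kinases LATS1 and LATS2. It also held the YAP-binding protein gene AMOTL2 and the target genes CCN1, CCN2 and ANKRD1. All 10 symbols were present in the table. The Müllerian duct is the embryonic tube from which the oviduct forms. In most female birds the left duct goes on to form the oviduct while the right one regresses. Embryos were kept in surrogate eggshells and received either sesame oil alone or ethynylestradiol (EE), a synthetic oestrogen, in sesame oil from embryonic day 3 to day 12. Left and right ducts were sequenced as poly(A) RNA, which gave 4 groups of 3 libraries: left oil, right oil, left EE and right EE. The labels give neither the dose, nor the age at sampling, nor whether ducts were pooled or replicates came from separate embryos, so p-values measure only the spread between these libraries, which may be technical. The comparisons ask how the left and right ducts differ without and with the oestrogen.

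In mammals and flies, the Hippo pathway is a chain of kinases that ends with the LATS kinases, which phosphorylate YAP and TAZ and so keep them out of the nucleus. Unphosphorylated YAP and TAZ enter the nucleus, bind TEAD factors and turn on genes for growth and matrix, among them CCN1 and CCN2 (also called CYR61 and CTGF), ANKRD1, AMOTL2 and LATS2. The pathway reads cell contacts, tension of the actin skeleton and secreted signals, and is known for setting organ size. Its control acts largely on proteins, by phosphorylation and location, which RNA levels do not measure.

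Libraries held 13303458 to 23621985 counted reads. Levels of single genes across samples are given as CPM (counts scaled to a common library size with TMM factors), and levels of different genes are compared only as FPKM, which also divides by exonic length. Markers of the duct were present in all groups. The summed CPM of 11 duct genes, PAX2, LHX1, EMX2 and WNT7A among them, was 922 ± 64.5 in left oil and 824 ± 33.4 in right oil ducts. It was 751 ± 7.08 in left EE and 724 ± 46.9 in right EE ducts (SD, n = 3). Single duct genes moved in both directions: of the 11, 4 were higher and 1 was lower on the left in oil (edgeR, adjusted p under 0.05). By striated muscle genes, 1 library stood apart: right oil replicate 1 had a summed CPM of 327 for 16 of them, against 18.9 to 37.1 in the other 11 libraries. Haemoglobin transcripts took 8.76% ± 3.49 of the reads in right oil ducts and 1.68% to 3.83% on average in the other groups. The right oil libraries ranged from 6.11% to 12.7%, with replicate 2 the highest. Counts of called members are also given without right oil 1, and without 3 libraries (left oil 1, right oil 1 and right EE 1) that an earlier analysis of these data had set aside for transcripts of other tissues; of the 3, only right oil 1 had a high sum for striated muscle. Scaling by total counts instead of TMM moved the median log2 ratio of all genes to 0.18 for left minus right in oil and to 0.17 for EE minus oil in right ducts, and that of the interaction to -0.15. In these bulk samples, fewer cells of a type and less RNA per cell cannot be told apart.

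In oil, 6 of the 9 testable members differed between the ducts, 5 higher and 1 lower on the left (edgeR quasi-likelihood test, adjusted p under 0.05). Over all 12113 tested genes the share called was 36.5%, with 18.4% higher and 18.1% lower on the left. The median log2 ratio, left minus right, was 0.45 over the 9 members and -0.0037 over all tested genes. After EE, 0 of the 9 members passed the same test between the ducts, as did 0.0826% of all genes (10 genes, none of them higher on the left). At an unadjusted p under 0.05 this comparison held 910 genes, and DESeq2 and limma also called 0 members. In left ducts, 6 members differed between EE and oil, 1 higher and 5 lower, against 13.3% of all genes (6.79% higher and 6.46% lower). In right ducts, 2 members were higher after EE and 0 lower, against 34% of all genes (17.6% higher and 16.4% lower). The interaction, which subtracts the oil side difference from the EE one, was called for 5 members, 1 positive (4.68% of all genes) and 4 negative (6.53%), against 11.2% in all. These counts were 6, 0, 6, 2 and 6 without right oil 1 alone and also without the 3 libraries together. ANKRD1, the 10th member, did not reach the level needed for the test, an FPKM of 1 or more in 3 or more libraries. By CPM, the left and right libraries of 6 of the 9 members did not overlap in oil (47.4% of all genes) and those of 3, CCN1, CCN2 and AMOTL2, did not overlap in EE (12.6% of all genes). EE and oil libraries of 6 members did not overlap on the left (31.3% of all genes) and those of 5 on the right, 2 above and 3 below (46.1% of all genes). The 3 below, YAP1, TEAD1 and LATS1, did overlap by FPKM, which uses no TMM factors. The comparisons share groups of samples and are not independent of each other.

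**Figure D1:**
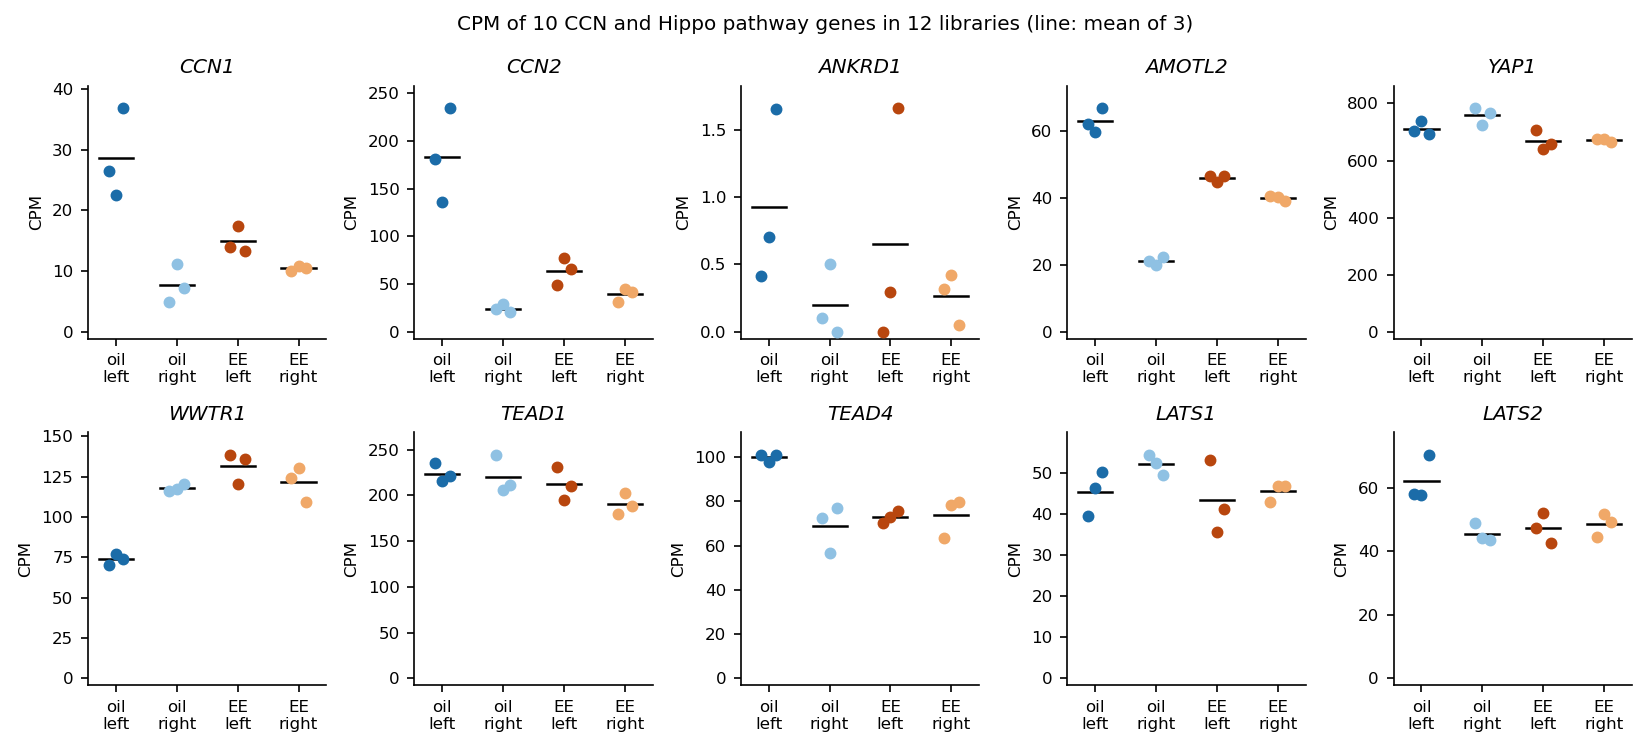
CPM of each of the 10 genes (vertical axis, linear, its own scale per gene) in the 12 libraries, with points for libraries and a line for the mean of 3 in the left and right ducts of oil-exposed and EE-exposed embryos. CCN1, CCN2 and AMOTL2 stand highest in the left oil ducts and lowest in the right oil ducts, WWTR1 is lowest in the left oil ducts, and YAP1 stays between 640.1 and 783 CPM.

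YAP1 (chromosome 1, 163398937 to 163480870, minus strand, coordinates as in the table, which are those of assembly Coturnix japonica 2.1) was at 119.55 to 148.47 FPKM, the highest range of the 10 genes. By the same scale WWTR1 (chromosome 9, 21154445 to 21193433, plus strand) was at 15.13 to 30.33 FPKM. YAP1 counted 702, 739 and 693 CPM in left oil, 783, 724 and 767 in right oil, 708, 640.1 and 659 in left EE ducts, and 676, 676 and 667 in right EE ducts. Left and right overlapped in both exposures. No comparison of YAP1 passed the test. Its left minus right log2 ratio was -0.09 ± 0.07 (SE) in oil, with a 95% interval of -0.24 to 0.06, and -0.01 in EE, with an interval of -0.16 to 0.14; the sign of both turned under total count scaling. By CPM, the 3 right EE libraries all lay below the 3 right oil libraries. By FPKM, which uses no TMM factors, they overlapped. The log2 ratio was -0.17 ± 0.07, with an adjusted p of 0.0715 in edgeR and 0.0126 in DESeq2. Under the alternatives and left-out libraries this ratio ran from -0.23 to -0.0019.

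WWTR1 was the only called member that was lower on the left in oil. In oil it counted 70.5, 76.8 and 73.7 CPM in left ducts and 116, 117 and 120.4 in right ones. In EE it was at 139, 120.4 and 136 CPM on the left and at 124, 131 and 109 on the right. Every left oil library was below every other library, and the remaining groups overlapped. WWTR1 was thus lower on the left in oil (log2 ratio -0.68 ± 0.08, edgeR adjusted p = 1.52e-05) and rose with EE in left ducts (0.84 ± 0.08, adjusted p = 7.22e-06). In right ducts its EE minus oil ratio was 0.04 with an adjusted p of 0.736, and the interaction was 0.79 ± 0.12 (adjusted p = 0.000371). The FPKM of YAP1 over that of WWTR1 was 8.86 ± 0.258 in left oil, 5.90 ± 0.267 in right oil, 4.67 ± 0.211 in left EE and 5.11 ± 0.433 in right EE ducts (SD, n = 3). The left oil ratios, 8.62 to 9.13, lay above those of all other libraries.

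The TEAD factors bind DNA and recruit YAP and TAZ. TEAD1 (chromosome 5, 12064915 to 12205400, minus strand), at 23.11 to 31.54 FPKM, was the more abundant of the 2 TEAD members, with TEAD4 (chromosome 1, 68324547 to 68371667, minus strand) at 6.53 to 14.30 FPKM. TEAD1 counted 235, 215 and 221 CPM in left oil, 244, 206 and 211 in right oil, 231, 195 and 209.9 in left EE, and 180.0, 202 and 189 in right EE ducts. Left and right overlapped in both exposures. By CPM, right EE lay below right oil in all 3 libraries (log2 ratio -0.21 ± 0.09, edgeR adjusted p = 0.0727), while by FPKM they overlapped. A call was gained with the erythroid covariate (-0.34, edgeR adjusted p = 0.0296), without right oil replicate 2 (0.0479) and in DESeq2 (0.0408). Under the alternatives and left-out libraries this ratio ran from -0.34 to -0.04. The left minus right ratio of TEAD1 in oil was 0.02 with a 95% interval of -0.16 to 0.21.

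TEAD4 counted 101, 97.7 and 101 CPM in left oil, 72.4, 56.8 and 76.9 in right oil, 70.4, 73.1 and 75.6 in left EE, and 63.5, 78.5 and 79.8 in right EE ducts. The left oil libraries lay above all others, which overlapped. TEAD4 was higher on the left in oil (log2 ratio 0.54 ± 0.11, edgeR adjusted p = 0.0014) and fell with EE in left ducts (-0.45 ± 0.11, adjusted p = 0.0122). The first call was lost when erythroid transcripts entered as a covariate (log2 ratio 0.31, adjusted p = 0.32), and the second without left EE replicate 1 (adjusted p = 0.0523) and in limma (0.0724 and 0.0811). The interaction for TEAD4, -0.56 ± 0.16 with an adjusted p of 0.0318, was lost on leaving out any of 8 single libraries (left oil 1, 2 or 3, right oil 2, left EE 1 or 2, right EE 2 or 3), with adjusted p-values of 0.0522 to 0.0746, and with the erythroid covariate (0.118). The FPKM of TEAD1 over that of TEAD4 was 2.18 in left oil and 3.17 in right oil ducts.

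LATS1 and LATS2 are the last kinases of the chain. LATS1 (chromosome 3, 43368716 to 43389145, minus strand) counted 39.6, 46.4 and 50.2 CPM in left oil, 54.5, 52.5 and 49.7 in right oil, 53.2, 35.6 and 41.4 in left EE, and 43.1, 46.9 and 46.9 in right EE ducts. Left and right overlapped in both exposures. By CPM, right EE lay below right oil in all 3 libraries, while by FPKM they overlapped. No comparison of LATS1 passed the test, and the left minus right interval was -0.48 to 0.07 in oil and -0.35 to 0.21 in EE on the log2 scale. LATS2 (chromosome 1, 159809422 to 159857454, plus strand), itself a YAP target in mammals, counted 58.2, 57.8 and 70.4 CPM in left oil, 48.9, 44.3 and 43.5 in right oil, 47.5, 52.1 and 42.7 in left EE, and 44.5, 51.9 and 49.3 in right EE ducts. Its left oil libraries lay above all others.

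LATS2 was higher on the left in oil (log2 ratio 0.45 ± 0.11, edgeR adjusted p = 0.00447) and fell with EE in left ducts (-0.39 ± 0.11, adjusted p = 0.0243). The first call was lost with the erythroid covariate (log2 ratio 0.20, adjusted p = 0.575). The second was lost without left oil replicate 3 (adjusted p = 0.0957), left EE replicate 1 (0.067) or left EE replicate 3 (0.0947), in limma (0.0894 and 0.0945) and under total count scaling (0.0563). Its interaction was -0.48 ± 0.15 with an adjusted p of 0.0551. The FPKM of LATS2 over that of LATS1 was 1.75 in left oil and 1.11 in right oil ducts.

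AMOTL2 encodes an angiomotin-like protein of cell junctions that binds and holds back YAP and that YAP and TEAD turn on in mammals. The gene (chromosome 9, 3378917 to 3385855, plus strand) had replicates close together. It counted 62.0, 59.8 and 66.8 CPM in left oil, 21.1, 20.0 and 22.4 in right oil, 46.5, 44.8 and 46.6 in left EE, and 40.7, 40.1 and 39.2 in right EE ducts. The 4 groups did not overlap at any step of the order left oil, left EE, right EE, right oil. The mean in left oil ducts was 2.97 times that in right oil ducts (log2 ratio 1.57 ± 0.09, edgeR adjusted p = 5.84e-09). After EE the left mean was 1.15 times the right one, and the log2 ratio of 0.20 ± 0.09 did not pass (adjusted p = 0.61). AMOTL2 fell with EE on the left (log2 ratio -0.45 ± 0.09, adjusted p = 0.00212) and rose on the right (0.92 ± 0.09, adjusted p = 1.55e-06). The interaction was -1.37 ± 0.12 (adjusted p = 6.66e-06).

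CCN2 and CCN1 encode secreted proteins of the matrix that bind integrins and growth factors. CCN2 (chromosome 3, 51805542 to 51808499, plus strand, 2247 exonic bases) had the widest range of the 9 tested members, from 8.57 to 108.89 FPKM. It counted 181, 135 and 234 CPM in left oil, 23.4, 28.8 and 20.5 in right oil, 48.6, 77.0 and 65.8 in left EE, and 31.1, 45.1 and 41.4 in right EE ducts. As for AMOTL2, the groups followed each other without overlap from left oil through left EE and right EE to right oil. The left mean was 7.56 times the right one in oil and 1.63 times in EE. The log2 ratio was 2.92 ± 0.21 in oil (edgeR adjusted p = 6.94e-08) and 0.70 ± 0.20 in EE, with a 95% interval of 0.27 to 1.13, an unadjusted p of 0.00318 and an adjusted p of 0.311.

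With EE, CCN2 fell on the left to 0.348 of the oil mean (log2 ratio -1.52 ± 0.20, edgeR adjusted p = 8.46e-05). On the right CCN2 was 1.62 times the oil mean (0.69 ± 0.21, adjusted p = 0.0162), a call that was lost without right oil replicate 3 (adjusted p = 0.0735), without right EE replicate 2 (0.0722) and with the erythroid covariate (0.118). The interaction for CCN2 was -2.22 ± 0.29 (adjusted p = 0.000114), the largest in size of the 9 tested members.

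CCN1 (chromosome 8, 14155779 to 14158280, minus strand, 1855 exonic bases) counted 26.5, 22.6 and 36.8 CPM in left oil, 4.88, 11.2 and 7.16 in right oil, 14.0, 17.4 and 13.3 in left EE, and 10.1, 10.9 and 10.5 in right EE ducts. The group means took the same order as those of CCN2, but right EE and right oil overlapped. The left mean was 3.69 times the right one in oil (log2 ratio 1.88 ± 0.25, edgeR adjusted p = 3.21e-05) and 1.42 times in EE (0.50 ± 0.25, adjusted p = 0.675). CCN1 fell with EE on the left (-0.94 ± 0.24, adjusted p = 0.0157), a call lost without left oil replicate 3 (adjusted p = 0.0903), left EE replicate 1 (0.0607) or left EE replicate 3 (0.0659). On the right its ratio was 0.44 ± 0.25 with an adjusted p of 0.196, which fell to 0.019 without right oil replicate 2. The interaction was -1.38 ± 0.35 (adjusted p = 0.0171; 0.0536 without left oil replicate 3). Per length, CCN2 was 5.28 ± 0.344 times CCN1 in left oil, 2.82 ± 1.01 in right oil, 3.53 ± 0.625 in left EE and 3.07 ± 0.461 in right EE ducts.

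**Figure D2:**
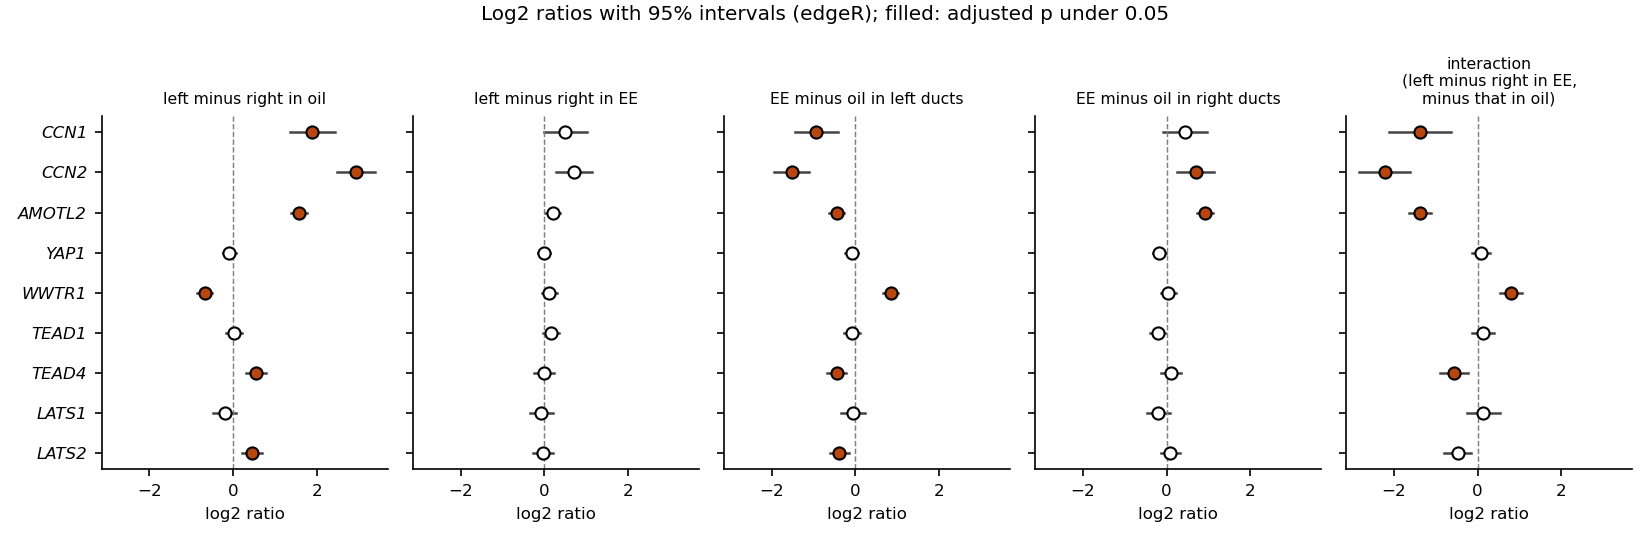
Log2 ratios (horizontal axis) of the 9 tested genes in 5 comparisons, 1 panel each, with 95% intervals from the edgeR fit; filled points passed an adjusted p of 0.05. In EE none of the left minus right points is filled, and in the interaction WWTR1 (0.79) lies to the right of 0 while CCN1, CCN2, AMOTL2 and TEAD4 lie to the left.

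ANKRD1, an ankyrin repeat protein of heart and stretched muscle and a widely used YAP readout in mammalian cells, was almost absent. The gene (chromosome 6, 17068009 to 17075275, minus strand) had 9, 17 and 23 counts in left oil, 2, 9 and 0 in right oil, 0, 5 and 41 in left EE, and 7, 9 and 1 in right EE ducts. All groups overlapped, and 1 left EE library held 41 of the 123 counts. With no filter on low genes its left minus right log2 ratio in oil was 2.18 ± 1.43 (edgeR adjusted p = 0.288), and no other comparison had an adjusted p under 0.881. Right oil replicate 1, the library with 327 CPM of striated muscle transcripts, had 2 counts of ANKRD1. No difference of this gene was called, with few counts and a wide spread within groups. Whether more depth would show one was not tested.

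Of the other CCN genes, CCN3 and CCN4 also encode secreted matrix proteins. CCN3 counted 31.3, 18.1 and 32.4 CPM in left oil, 8.12, 12.8 and 8.59 in right oil, 8.18, 10.9 and 16.1 in left EE, and 10.1, 7.13 and 6.13 in right EE ducts. CCN4 counted 23.4, 19.4 and 25.6 CPM in left oil, 9.76, 11.8 and 7.16 in right oil, 17.1, 8.61 and 9.51 in left EE, and 12.6, 9.68 and 9.29 in right EE ducts. For both genes the left oil libraries lay above all others and the remaining groups overlapped. All 4 tested CCN genes were higher on the left in oil, with log2 ratios of 1.47 ± 0.28 for CCN3 (edgeR adjusted p = 0.000855) and 1.25 ± 0.25 for CCN4 (0.00123). All 4 fell with EE in left ducts, CCN3 by 1.21 (log2, adjusted p = 0.00819) and CCN4 by 0.95 (0.0179). This count was 2 without left oil replicate 3 and 2 without left EE replicate 3. The CCN4 call in left ducts was also lost without left EE replicate 2 (adjusted p = 0.0859) or the 3 libraries (0.0523), and its call in oil with the erythroid covariate (0.108). Only CCN2 of the 4 passed for EE in right ducts. The interaction was called for CCN1 and CCN2 and, at -0.88 for CCN3 and -1.09 for CCN4, missed the threshold. CCN5 had 0 to 54 counts per library, below the filter, and CCN6 had 0 in all libraries. A separate locus described in the table as like CCN2 (LOC107323923) had 7 to 36 counts, and how reads shared with CCN2 were counted is not given in the sources used here.

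Other genes of the pathway were read from lists whose medians and counts stand beside those of all tested genes. The median log2 ratio of all tested genes was -0.0037 for left minus right in oil. For EE minus oil it was 0.0025 on the left and 0.0028 on the right. Of all tested genes 36.5% were called between oil ducts, 13.3% for EE on the left, 34% on the right, and 11.2% for the interaction. With the erythroid covariate, calls over all 12113 tested genes fell from 4422 to 1193 between the oil ducts. They fell from 4122 to 2380 for EE in right ducts and from 1358 to 983 for the interaction. Losses of list genes with this covariate thus stand beside a loss over all genes. The lists count the members that belong to them again, and FJX1 stands in both the junctional and the target list. Without members, 1 of 4 tested factors was higher and 1 lower on the left in oil. Of 16 junctional and polarity genes, 7 were higher and 2 lower. Among the YAP, TAZ, TEAD and VGLL factors, 4 of 8 tested genes differed between the oil ducts, 2 in each direction, and with the erythroid covariate the calls of TEAD4 and VGLL3 were lost. VGLL4, a co-factor that competes with YAP for TEAD in mammals, was at 107 ± 5.54 CPM in left oil, 228 ± 15.7 in right oil, 112 ± 4.37 in left EE and 116 ± 7.85 in right EE ducts (SD, n = 3). Its log2 ratio was -1.09 ± 0.08 for left minus right in oil (edgeR adjusted p = 6.69e-08) and -0.98 ± 0.08 for EE minus oil in right ducts (2.84e-07). VGLL3, of the same family, was low and higher on the left in oil (1.26 ± 0.30, edgeR adjusted p = 0.00359; 0.449 with the erythroid covariate). TEAD3 was measured and passed no comparison. In left ducts WWTR1 and TEAD4 were the 2 factors called for EE, and in right ducts VGLL4 was the only one of the 8 in edgeR, while DESeq2 also called YAP1 and TEAD1.

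Of the 9 tested core kinases and adaptors, LATS2 was higher and 2 were lower on the left in oil: STK38 (-0.39), a kinase related to LATS, and SAV1 (-0.24), the scaffold of the upstream kinases. This count of 3 stood beside 36.5% of all tested genes. It fell to 1 under total count scaling, in limma and without right oil replicate 2, and to 0 with the erythroid covariate. STK38L, another relative of the LATS kinases, rose with EE on both sides, from 45.6 to 90.8 CPM on the left (log2 ratio 0.99 ± 0.11, edgeR adjusted p = 2.08e-05) and from 51.6 to 75.3 on the right (0.54 ± 0.11, 0.0014). In right ducts SAV1 (-0.29) and STK38 (-0.33) fell with EE, calls that were lost in limma, under total count scaling and with the erythroid covariate; that of STK38 was also lost with only those 2 groups fitted and without right oil 2, right EE 2 or right EE 3 (adjusted p = 0.0572 to 0.153). For the interaction 0 of 9 passed in the main edgeR fit, and LATS2 alone passed in DESeq2 and limma. LATS2 also passed in edgeR under total count scaling and with some libraries left out (adjusted p = 0.0227 to 0.0439). The 2 genes with the highest mean CPM, MOB1B and SAV1, had ratios of 0.09 and 0.22.

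Of 16 tested upstream regulators of the kinases, 5 were called between the oil ducts, all of them higher on the left. Over all tested genes 36.5% were called there, and the median log2 ratio of the 16 was 0.05. The upstream genes with the lowest p were WTIP (log2 ratio 0.58), a LIM protein, TAOK1 (0.46), a kinase above the core chain, RASSF1 (0.74), an adaptor of the core kinases, and WWC2 (0.30), a KIBRA relative. The count of 5 was 3 without left oil replicate 3, 1 with the erythroid covariate and 8 in limma with a pseudocount of 0.1. The call of WWC2 was also lost without right oil 1 (adjusted p = 0.0544), right oil 3 (0.0586) or the 3 libraries together (0.0637). With EE, FRMD1 rose on the left (0.55) and the right (1.02), TAOK1 rose on the right (0.45), WWC2 fell on the left (-0.30) and STRN3 fell on the right (-0.24). The call of WWC2, at an adjusted p of 0.0452, was lost with the replicate block (0.0561), without the 3 libraries (0.0634), with only those groups fitted (0.0745), in limma, under total count scaling, and without left oil 2, left oil 3, left EE 1, left EE 2 or right EE 1 (0.0561 to 0.149). That of STRN3 was lost in limma, under total count scaling, with the erythroid covariate, without the 3 libraries, and without right oil 2, right oil 3, right EE 1 or right EE 3 (0.0519 to 0.539). That of TAOK1 was lost with the erythroid covariate (0.0898). WTIP (-0.55) and RASSF1 (-0.75) had a called interaction, at edgeR adjusted p-values of 0.0266 and 0.0499. Both were lost with the erythroid covariate (0.101 and 0.101). WTIP was also lost without the 3 libraries and without left oil 3, right oil 1, right oil 2, left EE 1 or right EE 2 (0.0501 to 0.0817). RASSF1 was also lost with the replicate block (0.0745), with a CPM filter (0.0532), and without any single library other than left oil 3, right oil 1 and right EE 1 (0.064 to 0.13).

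Of the 17 tested junctional and polarity genes, 10 were called between the oil ducts, 8 of them higher on the left, and 3 were called with the erythroid covariate. AMOTL1, a relative of AMOTL2, was at 103 ± 7.99 CPM in left oil, 190 ± 2.25 in right oil, 75.1 ± 9.58 in left EE and 80.6 ± 6.71 in right EE ducts (SD, n = 3). Its log2 ratio was -0.88 ± 0.10 between the oil ducts (edgeR adjusted p = 4.10e-06) and -1.23 ± 0.10 for EE in right ducts (2.22e-07), with an interaction of 0.78. PTPN14 (0.50; call lost with the erythroid covariate, adjusted p = 0.396), a phosphatase that binds YAP, and FJX1 (0.42), of the Fat and Dachsous branch, were higher on the left in oil. With EE, 4 junctional genes rose and 5 fell on the left, and 7 rose and 4 fell on the right. The locus described as cadherin-1 (LOC107319509), the epithelial adhesion protein, rose on both sides (0.81 and 1.24). On the left LLGL2 rose (0.55) and MPP5 fell (-0.64), both of them cell polarity genes, and on the right FJX1 rose (0.87).

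Of 20 further tested genes known as YAP and TEAD targets in mammals, 10 were higher and 3 lower on the left in oil, with a median log2 ratio of 0.39, and 4 of the 20 were called with the erythroid covariate. MYOF, a membrane repair protein, was higher on the left (1.603 ± 0.13, edgeR adjusted p = 1.54e-07), as were BIRC5 (1.47 ± 0.15), a protein of cell division, and ARHGAP29 (0.49 ± 0.08), whose call was lost with the erythroid covariate (0.0629). GADD45A, a stress response gene, was lower on the left (-1.03 ± 0.11). With EE, 8 of the 20 fell and 2 rose in left ducts, with a median of -0.32, and the lowest p-values were those of THBS1 (-0.89 ± 0.09, adjusted p = 1.18e-05), CRIM1 (-0.67), TGFB2 (-0.57) and ASAP1 (-0.50). In right ducts 7 rose and 7 fell, among them MYOF (1.61 ± 0.13), FJX1 (0.87), GADD45A (-1.10) and TGFB2 (-0.91). The levels of single targets took different orders. THBS1, a secreted matrix protein gene, was at 125 and 113 CPM in left and right oil ducts and at 67.3 and 65.5 in EE ducts, while MYOF was at 74.9, 24.6, 92.9 and 75.3 CPM in left oil, right oil, left EE and right EE ducts. The interaction was called for 5 of the 20, 1 positive (GADD45A) and 4 negative (MYOF, BIRC5, ARHGAP29 and FJX1). Without right oil 1 the count was 8. The call of FJX1 was lost without the 3 libraries (edgeR adjusted p = 0.105) and without left oil 1, left oil 2, right oil 2, left EE 2 or right EE 1 (0.0501 to 0.0654).

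Genes of serum response factor and its actin-regulated co-activators, which share several targets with YAP, were listed alongside. In oil 9 of 13 were higher on the left and 0 lower, with a median log2 ratio of 0.55. The lowest p-values were those of the alpha-actinin-1 locus LOC107314914 (0.94), TPM4 (0.71), TPM1 (1.27) and FHL2 (1.12), genes of actin filaments and their partners. With EE 1 rose on the left, FILIP1L (0.71), and 8 rose on the right, TPM4 (0.64), FILIP1L (1.02), LOC107314914 (0.61) and TPM1 (0.73) among them. With the erythroid covariate the oil count fell to 4 and the count in right ducts to 3, TPM1 among those lost on the right (0.126). Between the EE ducts no gene of any of the 7 lists was called. For each list not yet described there, the 2 genes with the highest mean CPM, which is not divided by length, are given. Their left minus right log2 ratios there were 0.11 (NF2) and 0.03 (MAP4K4), 0.06 (CTNNA1) and 0.04 (DCHS1), and 0.11 (FSTL1) and 0.01 (CCDC80). The others were 0.43 (TPM1) and 0.29 (VCL), and 0.13 (MOB1B) and -0.02 (SAV1).

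**Figure D3:**
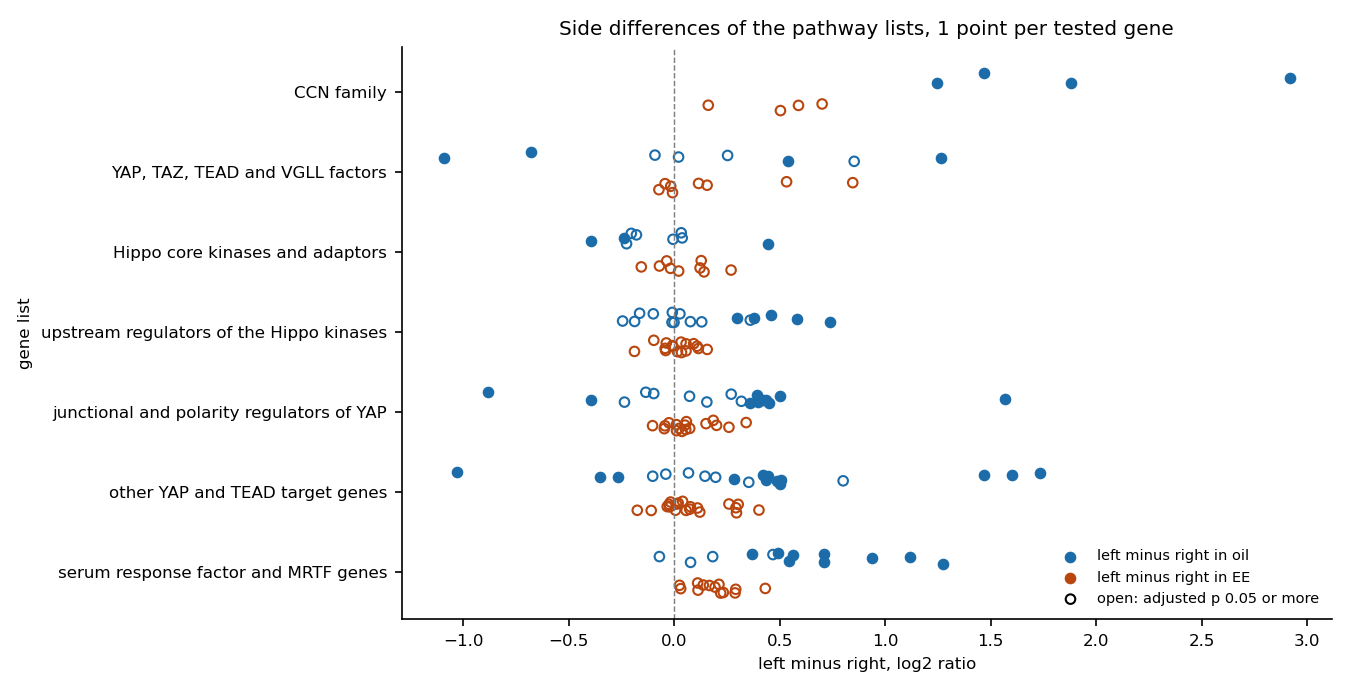
Left minus right log2 ratios of the tested genes of 7 pathway lists (vertical axis, 1 row per list) in oil and in EE; points are genes. In oil the 4 CCN genes span 1.25 to 2.92 and in EE 0.16 to 0.70. Filled points passed an adjusted p of 0.05 in edgeR.

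Markers of other cell types moved with the same groups. The summed CPM of 18 proliferation genes was 2885 to 3126 in left oil, 882 to 979 in right oil, 2363 to 2657 in left EE and 1884 to 2255 in right EE ducts, and all 18 were called higher on the left in oil. That of 12 smooth muscle genes was 4789 to 5893, 2307 to 3718, 5491 to 6313 and 3678 to 5479 in the same order, with 10 called higher on the left in oil. For 14 endothelial genes it was 828 to 907, 449 to 507, 751 to 829 and 740 to 779, with 11 called higher and 1 lower. Macrophage genes ran the other way, at 50.0 to 61.4 in left oil and 147 to 166 in right oil ducts. Every gene of these 4 lists had counts. The proliferation sum took the order of CCN2 and AMOTL2, without overlap from left oil through left EE and right EE to right oil. The sum of 12 erythroid genes averaged 21376 CPM in left oil, 100063 in right oil, 16619 in left EE and 38935 in right EE ducts. That of 6 mesothelial genes, of which UPK3B was at 0 throughout, averaged 315, 482, 209.6 and 224 in the same order. WT1 made up most of this sum, at 267, 242 and 219 CPM in left oil and 364, 391 and 430 in right oil ducts. Of the 4 tested mesothelial genes, 2 were called higher and 2 lower on the left in oil. The part of these cell types in the side difference of CCN1, CCN2 and AMOTL2 was not tested.

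Between EE and oil in left ducts, the mean sum with EE over that in oil was 0.922 for endothelium, 1.09 for smooth muscle, 0.855 for proliferation, 0.777 for erythroid genes, 0.665 for mesothelium, 1.26 for macrophages, 1.28 for striated muscle and 0.815 for duct genes. The same ratio was 0.348 for CCN2, 0.521 for CCN1 and 0.731 for AMOTL2. In right ducts it was 1.56 for endothelium, 1.54 for smooth muscle, 2.18 for proliferation and 0.389 for erythroid genes. It was 0.464 for mesothelium, 0.508 for macrophages, 0.207 for striated muscle and 0.878 for duct genes. The striated muscle ratio rested on right oil replicate 1, at 327 CPM. Right oil replicates 2 and 3 were at 20.1 and 30.6 CPM, and the right EE libraries at 22.1 to 32.0. Beside these, the ratio of EE over oil in right ducts was 1.62 for CCN2 and 1.89 for AMOTL2. For CCN1, whose right EE and right oil libraries overlapped, it was 1.35. Of the 11 duct genes, 0 rose and 5 fell with EE on the left, and 2 rose and 4 fell on the right. Of the 4 tested mesothelial genes, 0 rose and 1 fell on the left, and 1 rose and 2 fell on the right.

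**Figure D4:**
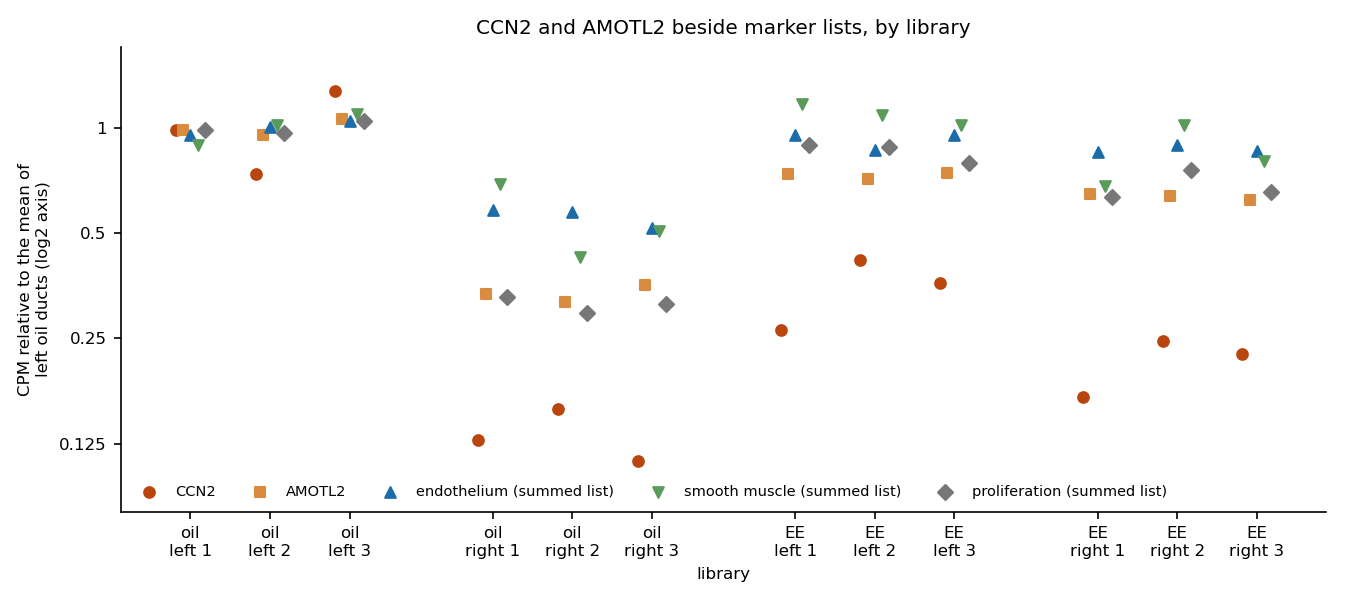
CPM of CCN2 and AMOTL2 and summed CPM of 3 marker lists in each of the 12 libraries, relative to the mean of the left oil ducts (vertical axis, log2 scale). In left EE against left oil ducts, the mean sums were 5891 against 5385 for smooth muscle, 802 against 870 for endothelium and 2549 against 2982 for proliferation. CCN2 was at 63.8 against 183 CPM. Of the lists not drawn, the same ratio of means was 0.665 for mesothelium, 0.777 for erythroid and 0.815 for duct genes. It was 1.26 for macrophages and 1.28 for striated muscle. The part of these cell types in the CCN2 difference was not tested.

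Likeness to a target gene over the 12 samples was measured by Pearson's r of log2(CPM + 1). This is a description, since the samples fall into the same 4 groups and share libraries. Members and LOC-numbered genes were left out, and the most alike of the other tested genes are named. For CCN2 they were B4GALT6 (r = 0.985), GLDN (0.970), AHRR (0.970) and ADGRL4 (0.969). For CCN1 they were MIS18A (0.950), MRS2 (0.949), MET (0.946), DACH2 (0.945) and ITGB3BP (0.934). For ANKRD1, with its few counts, they were PPM1B (0.917), TLK1 (0.863), IRAK4 (0.863), NOD1 (0.842) and ADGRB3 (0.840).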

How the data were processed

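Poly(A) RNA of 12 duct samples was sequenced, and grouping followed the side and treatment given per the labels. Per the submitters' processing notes the authors used cutadapt 1.9.1, HISAT2 2.0.1, HTSeq 0.6.1 and DESeq2 1.6.3. Neither the genome build nor the annotation or strand setting is given in the sources used here. Raw read counts, exonic lengths in bases and FPKM stand in the deposited table, the last of which the authors' counts returned to within 0.005. All 16013 genes had the start and end of a RefSeq gene table of assembly Coturnix japonica 2.1, which gave the chromosomes.

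Counts were fitted in R 4.3.3 with edgeR 4.0.16 (TMM, quasi-likelihood, two-sided, 4 group means) over 12113 genes reaching an FPKM of 1 in 3 or more samples, and called at a Benjamini-Hochberg adjusted p under 0.05. Error terms are SE for log2 ratios and SD of 3 libraries for levels. The script was tested on simulated data. An exact permutation test of 3 against 3 samples cannot go below 0.1. Alternatives were DESeq2 1.42.0, limma 3.58.1 on log2(FPKM + 1) and log2(FPKM + 0.1), other scalings and filters, covariates, a replicate block and left-out libraries.

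All 10 genes were described. Of each pathway list, the called genes with the 4 lowest p-values per comparison were named, or the 2 with the highest mean CPM where none was called. The members and lists were chosen with earlier results of these data known. List genes under a LOC identifier, 13 in all, were matched by their descriptions. TEAD3, CCN5, CCN6, VGLL4, MYOF and THBS1 levels, LOC107323923 and non-called CCN genes were added after their values were seen. Of the genes most like the targets, 1 is not reported here.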

Additional observations from a re-analysis of the deposited data

Results flagged for a closer look

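The left minus right difference differed between EE and oil, by the interaction term in edgeR, for 5 of the 9 tested members. Over all tested genes the share was 11.2%. Values are log2, the difference in EE minus that in oil. They were -2.22 for CCN2 (adjusted p = 0.000114), -1.38 for CCN1 (0.0171), -1.37 for AMOTL2 (6.66e-06), -0.56 for TEAD4 (0.0318) and 0.79 for WWTR1 (0.000371). The call of TEAD4 was lost with the erythroid covariate (edgeR adjusted p = 0.118) and on leaving out several single libraries in turn. That of CCN1 was lost without left oil replicate 3 (0.0536).

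The same held for 13 named genes of the wider lists. Negative values were those of MYOF (-1.30), BIRC5 (-1.17), FHL2 (-0.98), TPM1 (-0.84), RASSF1 (-0.75), LOC107314914 (-0.65), WTIP (-0.55), TPM4 (-0.52), ARHGAP29 (-0.47) and FJX1 (-0.44). Positive values were those of VGLL4 (1.05), GADD45A (0.85) and AMOTL1 (0.78). Their edgeR adjusted p-values lay between 2.13e-05 for VGLL4 and 0.0499 for RASSF1. Groups of 3 samples were not screened for outlying samples. The calls of TPM1 and TPM4 were lost with the erythroid covariate (0.0531 and 0.0533), that of TPM4 also without left oil 1, right oil 1 and right EE 1 together (0.0582), and that of TPM1 without left oil 3, left EE 3 or right EE 2 (0.0637 to 0.0668).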

How the results depend on the processing

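Of 1071 values of the 9 tested genes under 24 alternatives and left-out libraries, 1028 kept their side of the threshold, of which 990 also kept their sign and 38, none of them called, did not. In all, 33 of 45 comparisons of single genes never changed call; no called value changed sign. CCN2, AMOTL2 and WWTR1 stayed called in all of them between the oil ducts, for EE in left ducts and for the interaction, with CCN2 between 2.71 and 3.11, -1.70 and -1.32, and -2.40 and -2.01 (log2). The number of genes called for EE in right ducts was 4 with DESeq2 (CCN2, AMOTL2, YAP1 and TEAD1) against 2. With single libraries left out it ran from 1 to 4, for EE in left ducts from 3 to 6, and for the interaction from 3 to 6. LATS2 gained an interaction call with DESeq2 (adjusted p = 0.0343), in limma (0.0466 and 0.0463) and under total count scaling (0.0227). In edgeR it also gained one without the 3 libraries (0.0364) and without right oil 1 (0.0407), left EE 2 (0.0435) or right EE 1 (0.0439). In right ducts CCN1 gained a call in limma (0.0442 and 0.0364) and under total count scaling (0.0495). The limma fits used FPKM, which is scaled by total counts without TMM factors. Calls gained or lost both in limma and under total count scaling therefore share that scaling and are not separate checks.

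The erythroid covariate follows the groups: with it 4 genes were called between the oil ducts, and calls over all genes fell from 4422 to 1193 there and from 4122 to 2380 for EE in right ducts. Between the EE ducts the 10 genes called overall became 75 with DESeq2, 0 with limma, 4 with only the 2 groups compared, 5 with the erythroid covariate, 6 without the 3 libraries, 51 without right EE 2, and 4 to 6 without any of left oil 1 to 3, right oil 3, left EE 1 to 3, right EE 1 or right EE 3. With the replicate block the counts were 6, 0, 6, 2 and 5 in the order of the report. This block gave all libraries of the same number a shared effect, oil and EE alike. It therefore did not pair left and right ducts within an exposure, and no fit with such pairs was made. Same-numbered left and right libraries had correlated deviations of 0.05, 0.14 and 0.16 in oil and -0.02, -0.03 and 0.07 in EE, so the numbers were not taken as pairs; in oil each library correlated best with its own number. The block cut the genes called overall between the EE ducts to 4. ANKRD1, CCN5 and LOC107323923 had 0 to 54 counts per library, and with no filter on low genes no comparison of them was called.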
